A study of Mus musculus with 6 samples.

Results

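DNA methylation was examined at 4 regions of an imprinted gene cluster on mouse chromosome 7 that hold H19 with its control region, Igf2, the start of Kcnq1ot1, and Cdkn1c. The regions were set by position on the mm9 build: H19 at chr7:149760000-149770000, Igf2 at chr7:149835000-149856000, Kcnq1ot1 at chr7:150478000-150484000 and Cdkn1c at chr7:150642000-150650000. CpG sites inside them that were covered by at least 10 reads in all 6 libraries were used, which gave 283 of the 943307 sites that met this minimum genome-wide: 12 at H19, 147 at Igf2, 17 at Kcnq1ot1 and 107 at Cdkn1c. The choice used positions and coverage and no methylation level. Gene parts such as exons were not annotated on mm9 here, so the regions are named for the genes by position only.

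The libraries came from kidney cortex and outer medulla of wild-type male C57BL/6J mice, whose age the labels do not give. There were 3 groups of 2: kidneys obstructed by tying the left ureter for 7 days in mice given 1 mg/kg per day of the drug labelled 5AZA in saline (UUO, 5AZA), kidneys obstructed for 7 days in mice given saline (UUO, saline), and sham-operated kidneys. Ureteral obstruction (UUO) is a standard model of kidney fibrosis. Sham 1 belongs to the obstruction experiment, and the name of sham 2 ties it to ischemia/reperfusion and 48 hours. The labels do not say whether the libraries of a group came from separate mice, so p-values measure the spread between these libraries, which may be technical.

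Imprinted genes are expressed from the copy of 1 parent. The H19 control region carries methylation on the paternal copy; the unmethylated maternal copy binds the insulator protein CTCF, which keeps distal enhancers from Igf2 and lets them act on H19. The start region of Kcnq1ot1 is methylated on the maternal copy, and the long noncoding RNA transcribed from the paternal copy silences neighbours that include Cdkn1c. A stretch methylated on 1 parental copy reads at an intermediate level in DNA of both copies. Igf2 encodes a fetal growth factor and H19 a noncoding RNA, both known for high expression in the fetus, and Cdkn1c encodes the cell cycle inhibitor p57Kip2, known in adult kidney from podocytes. The assay does not tell the parental copies apart, and in bulk tissue a change within cells and a change in the mixture of cells cannot be told apart.

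Reduced representation bisulfite sequencing reads short DNA fragments cut by MspI at CCGG. The promoter sequences show where this motif lies inside them, and not where it lies in the rest of each region. RefSeq (GRCm38.p6) lists 4 promoter sequences of Igf2 and 1 of Kcnq1ot1, each with 250 bases before and 50 after a transcript start; H19 and Cdkn1c had none in that table. The Igf2 promoter that could be placed among the file positions, the Kcnq1ot1 promoter, and the promoter of the neighbouring imprinted gene Phlda2 are shown 5′ to 3′ with CCGG in capitals, since it is at these letters that fragments begin and end.
Igf2 (chr7:142658755-142659054, minus strand, GRCm38.p6): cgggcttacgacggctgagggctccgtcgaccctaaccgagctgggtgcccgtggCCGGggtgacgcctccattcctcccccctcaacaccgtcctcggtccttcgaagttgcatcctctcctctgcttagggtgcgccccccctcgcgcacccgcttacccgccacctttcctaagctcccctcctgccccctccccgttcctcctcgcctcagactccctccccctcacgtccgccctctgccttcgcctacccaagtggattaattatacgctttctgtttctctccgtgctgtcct
Kcnq1ot1 (chr7:143296498-143296797, minus strand, GRCm38.p6): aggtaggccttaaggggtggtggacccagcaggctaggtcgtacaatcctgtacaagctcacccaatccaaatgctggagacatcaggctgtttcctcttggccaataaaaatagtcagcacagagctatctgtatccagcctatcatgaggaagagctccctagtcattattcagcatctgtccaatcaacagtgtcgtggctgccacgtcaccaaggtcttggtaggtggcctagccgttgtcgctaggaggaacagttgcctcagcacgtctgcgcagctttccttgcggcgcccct
Phlda2 (chr7:143502475-143502774, minus strand, GRCm38.p6): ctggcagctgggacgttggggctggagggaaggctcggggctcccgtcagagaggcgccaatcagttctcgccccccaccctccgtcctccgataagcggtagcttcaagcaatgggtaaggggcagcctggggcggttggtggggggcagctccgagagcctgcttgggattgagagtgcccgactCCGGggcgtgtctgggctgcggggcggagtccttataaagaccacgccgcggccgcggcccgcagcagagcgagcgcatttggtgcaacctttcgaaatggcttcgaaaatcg

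The motif CCGG, which reads the same on both strands, occurs in 52.8% of the 32851 promoter sequences in the table. The Igf2 promoter above holds 24 CpG and 1 CCGG, the Phlda2 promoter 26 CpG and 1 CCGG, and the Kcnq1ot1 promoter 9 CpG and 0 CCGG. A promoter was placed on mm9 where each covered CpG position inside its length fell on a CpG of its sequence, with at least 6 matches and more than at any other place in the surrounding part of chromosome 7. The Igf2 promoter matched at chr7:149844660-149844959 with 8 covered CpG sites, against 3 at the next best place. The Kcnq1ot1 promoter and the other 3 Igf2 promoters had too few matches to be placed. The 17 Kcnq1ot1 sites therefore stand for part of its start region, with no stated distance to the transcript start.

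CpG sites inside CCGG read far higher than their neighbours. In the placed Igf2 promoter the site in CCGG, at 149844902, had a mean level over the 6 libraries of 71.0%, while 6 sites at 149844908 to 149844950 had 0.265% to 1.53%. A further high site, at 149844958 with 69.3%, fell on the first bases of the printed sequence, CG followed by G, whose preceding base lies outside the table. Over 10 placed promoters of 9 genes of the wider cluster, the 24 covered sites in CCGG ranged from 61.0% to 84.5% with a median of 74.9%, against a median of 1.78% for the other 112, of which 1 (the Igf2 site at 149844958) reached 30%. The end-repair mix of the protocol contained methylated dCTP. Its part in these levels was not tested. Sites whose mean level over the 6 libraries stood at least 25 percentage points above the median of the sites within 100 bp are called raised sites here. They made up 11.7% of all sites. Mean levels of the regions are given with and without them, while levels of windows and promoters include them.

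**Figure D1:**
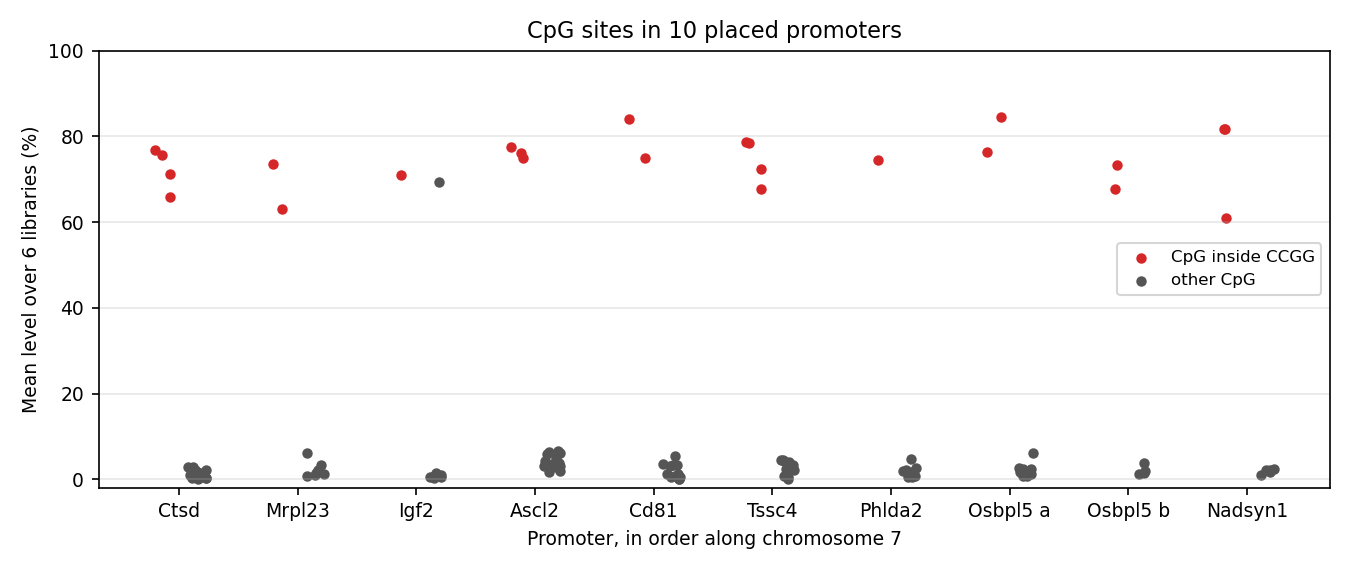
Methylation level (%, mean over 6 libraries) of each covered CpG site in 10 promoters placed by their CpG spacing, in order along chromosome 7; each point is 1 site, red inside CCGG and grey elsewhere. The red points lie between 61.0% and 84.5%, and the grey points have a median of 1.78% with a single one, in Igf2, at 69.3%.

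Covering reads summed over CpG sites ranged from 37728517 in sham 2 to 76730132 in saline 1. Averaged over all 943307 sites, levels were 43.5% and 43.1% in the 5AZA libraries, 45.3% in each saline library, and 44.4% and 42.95% in sham 1 and sham 2, so any difference at the imprinted regions is set against this background. Across the 89813 windows of 1 kb with at least 3 sites, the median difference was 1.27 percentage points for saline minus sham and -2.79 points for 5AZA minus saline. Both comparisons share the saline libraries. Per region, methylated and unmethylated reads were tested with edgeR's quasi-likelihood test in one table with all windows, with Benjamini-Hochberg adjustment over that table. The exact two-sided permutation test over libraries cannot go below p = 0.333 with 2 against 2.

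The share of sites of intermediate level, 20% to 80% on average over the libraries, was 76.5% at Kcnq1ot1 (13 of 17), 63.6% at Cdkn1c (68 of 107) and 50% at H19 (6 of 12), against 19.2% of all sites. At Igf2 it was 15.6% (23 of 147). These shares were taken over all sites, raised sites included, of which H19 had 2, Igf2 22, Kcnq1ot1 4 and Cdkn1c 17. Shares without raised sites were not taken. Sites on the same fragment share reads and are no independent measures. The 283 sites fell into 12 runs of equal coverage at H19, 81 at Igf2, 9 at Kcnq1ot1 and 46 at Cdkn1c. A run needed equal coverage in all 6 libraries, so runs do not count separate fragments. The H19 sites 149761700 and 149761722 formed separate runs although only sham 2 differed between them (52 and 53 reads).

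**Figure D2:**
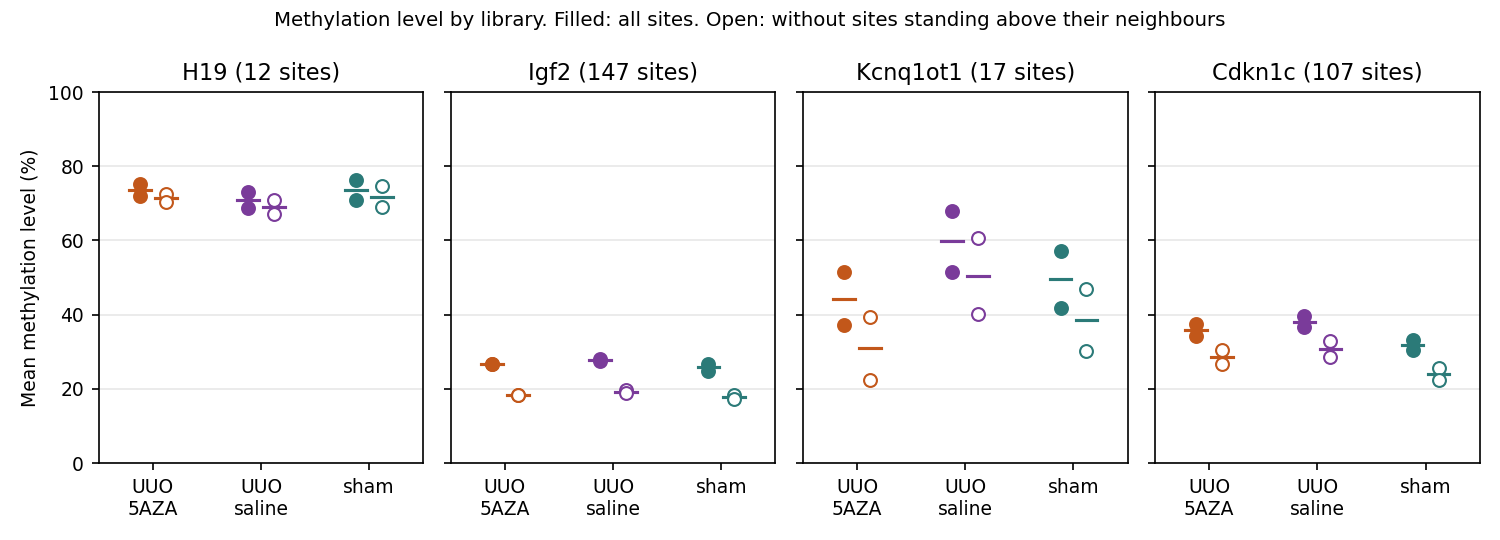
Mean methylation level (%) of the 4 regions in each of the 6 libraries, grouped as UUO with 5AZA, UUO with saline and sham; filled points use all sites, open points leave out raised sites, and bars are group means. H19 and Igf2 libraries lie close together. The Cdkn1c points of saline lie higher than those of sham among the filled points and among the open points. At Kcnq1ot1 libraries of a group lie far apart, such as 51.5% and 68.0% with saline.

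Inside the 4 regions lay 18 of the tested windows. Between saline and sham, 1 of the 18 passed an adjusted p of 0.05 by edgeR, a window at Cdkn1c that rose, against 0.0512% of all windows (0.0457% higher and 0.00557% lower), and 3 had an unadjusted p under 0.05, against 10.4%. By limma, 0 of the 18 and 0 of all windows passed in this comparison. Saline lay above sham without overlap in 7 of the 18, against 36.3% of all windows, and below it in 1, against 8.99%. The members' shares above and below were thus near those of all windows. The median saline minus sham difference was 2.81 points over the 18. Between 5AZA and saline, 0 of the 18 passed by edgeR, against 1.55% of all windows (0.00445% higher and 1.55% lower), with 2 at an unadjusted p under 0.05, against 23.2%, and limma passed 0 of the 18 and 0 of all windows. With 5AZA, 6 of the 18 lay below saline without overlap, against 53.5% of all windows, and 1 lay above, against 3.83%. Their median 5AZA minus saline difference was -1.67 points. These shares carry no test, and the windows were not matched for level.

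H19 was the most highly methylated of the 4 regions and showed no difference that passed the test. Its level was 75.1% and 72.0% in the 5AZA libraries, 68.7% and 73.0% in the saline libraries, and 70.9% and 76.2% in the sham libraries. The groups overlapped. Saline averaged 70.8% ± 3.07 against 73.6% ± 3.76 for sham (SD, n = 2 each), so saline minus sham was -2.74 points (edgeR adjusted p = 0.834). By summed reads, which edgeR tested, the H19 difference had the opposite sign, 1.69 points, and by sites it was -0.565 points without saline 1, -4.91 points without saline 2, -5.4 points without sham 1 and -0.0757 points without sham 2. With 5AZA it was 73.6% ± 2.22 (SD, n = 2), 2.73 points above saline (edgeR adjusted p = 0.704). That difference was 0.561 points without saline 1, 4.91 points without saline 2, 1.16 points without 5AZA 1 and 4.31 points without 5AZA 2. Without the 2 raised sites the means were 71.4% with 5AZA, 69.0% with saline and 71.7% in sham.

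The 12 H19 sites lay in 3 stretches with distinct levels. The first, chr7:149761700-149761873, was methylated at 91.6% and 84.1% with 5AZA, 93.6% and 89.9% with saline, and 90.2% and 85.9% in sham. The middle stretch, chr7:149764070-149764147, was intermediate: its 3 inner sites averaged 34.5% to 37.4% over the libraries, between raised sites of 86.9% and 77.7%. The third, chr7:149767047-149767291, held 3 sites of 88.95% to 97.6% and 1 intermediate site at 149767135, which read 58.2% and 52.5% with 5AZA, 44.0% and 56.1% with saline, and 47.7% and 55.3% in sham. Which of these stretches lie in the control region was not determined, since H19 had no sequence to place.

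The 1 kb window of the middle stretch, at 149764001 to 149765000, had the most sites at H19 and the largest difference in both comparisons. Its level was 57.8% and 56.3% with 5AZA, 47.0% and 52.95% with saline, and 51.8% and 61.9% in sham (102 to 219 reads summed over its 5 sites per library). Both 5AZA libraries lay above both saline libraries, by 7.09 points on average (edgeR adjusted p = 0.396), while saline and sham overlapped, with a difference of -6.89 points (edgeR adjusted p = 0.677). The difference between saline and sham was -1.86 points without sham 2 and -11.9 points without sham 1.

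Igf2 was mostly unmethylated, with more methylated stretches on both sides, and no difference between the groups passed the test. Over the 147 sites it was 26.65% and 26.8% with 5AZA, 28.1% and 27.5% with saline, and 26.8% and 24.96% in sham. The largest stretch, 72 sites at chr7:149844902-149845822, averaged 13.1% and 12.4% with 5AZA, 13.6% and 13.4% with saline, and 13.5% and 11.6% in sham, and 11 of its sites were raised. Without raised sites the region's 125 sites stood at 18.3% ± 0.0977 with 5AZA, 19.3% ± 0.613 with saline and 17.8% ± 0.629 in sham (SD, n = 2 each). At the far end, 9 sites at chr7:149855377-149855696 had means over the libraries of 94.3% to 99.6%.

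**Figure D3:**
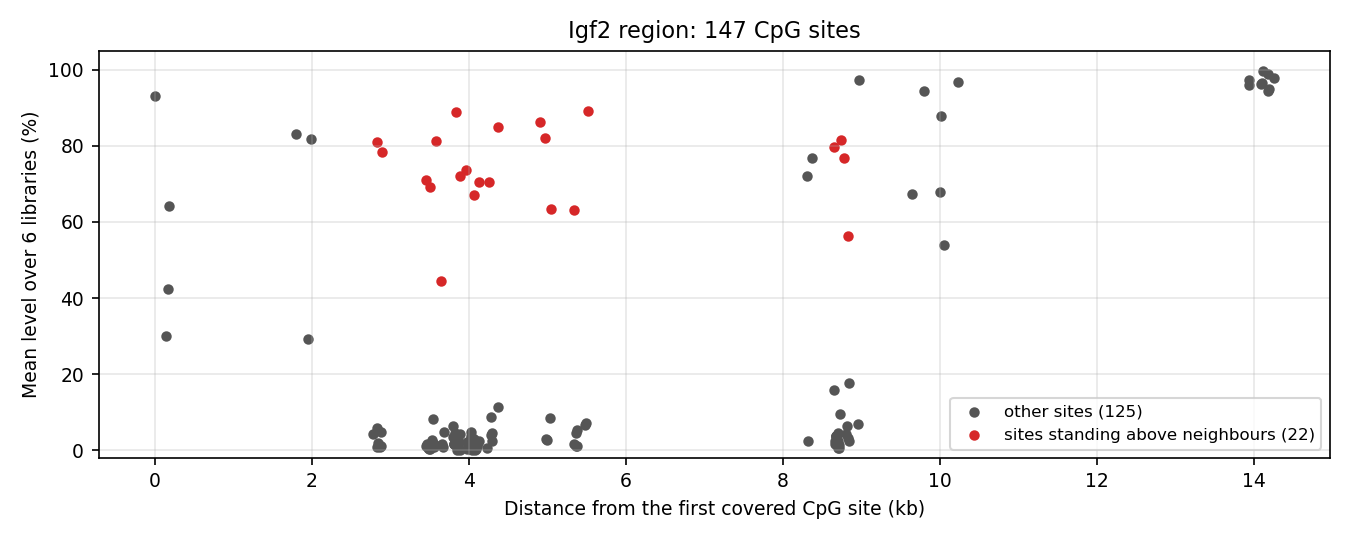
Mean methylation level over the 6 libraries (%) of the 147 Igf2 sites by distance from the first covered site (kb); red points are the 22 raised sites and grey points the other 125. Most grey points lie under 20%, the red points lie among them at 44% to 89%, and the last 9 sites lie above 94%.

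Over the whole Igf2 region the saline libraries exceeded sham by 1.88 points (edgeR adjusted p = 0.697), and the 5AZA libraries lay 1.03 points under saline, a difference of -1.03 points (edgeR adjusted p = 0.227). Both orders were complete, with no overlap between saline and sham or between 5AZA and saline. As methylated reads over all reads, these differences were -2.43 and 3.97 points, of the opposite sign. By sites, saline minus sham was 0.96 points without sham 2. The share of Igf2 reads that fell on the 24 sites of 80% or more was 18.3% and 19.9% with 5AZA, 12.9% and 17% with saline, and 20.8% and 15.7% in sham.

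Among Igf2 windows the largest differences lay at 149841001 to 149842000, which held 4 sites of mixed level. It read 52.05% and 59.5% with 5AZA, 73.4% and 54.2% with saline, and 52.8% and 52.9% in sham (59 to 236 summed reads per library). Saline 1 alone was high. The differences were 10.95 points between saline and sham (edgeR adjusted p = 0.598) and -8.02 points between 5AZA and saline (edgeR adjusted p = 0.61); without saline 1 they were 1.31 and 1.61 points. The window with the most sites, 61 at 149845001 to 149846000, differed by 0.877 and -0.43 points in saline against sham and in 5AZA against saline (edgeR adjusted p = 0.952 and 0.966).

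The Kcnq1ot1 start region was of intermediate level and varied more between libraries than nearly any other window. Its 17 sites, all in the window 150481001 to 150482000, averaged 51.45% and 37.1% with 5AZA, 51.47% and 68.0% with saline, and 57.3% and 41.8% in sham. The 5AZA and saline libraries did not overlap, though 5AZA 1 and saline 1 were nearly equal, while saline and sham overlapped. The highest and lowest library stood 30.9 points apart, a span that 0.362% of all windows reached. Of the 6443 windows with a mean level of 40% to 60%, 1.41% reached it, and their median span was 11.8 points. The windows were not matched for coverage or count of sites.

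The difference between saline and sham was 10.2 points (59.8% ± 11.7 against 49.5% ± 10.9; SD, n = 2 each; edgeR adjusted p = 0.627), and that between 5AZA and saline was -15.5 points (44.3% ± 10.1 with 5AZA, SD, n = 2; edgeR adjusted p = 0.165). Neither passed the test. Without the 4 raised sites the means were 31.0% with 5AZA, 50.4% with saline and 38.6% in sham. The size rested on single libraries: against sham it was 1.94 points without saline 2, 2.49 points without sham 2, 18.5 points without saline 1 and 18 points without sham 1. Between 5AZA and saline it was -7.2 points without saline 2, -8.31 points without 5AZA 2, -23.8 points without saline 1 and -22.7 points without 5AZA 1.

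Between 150481280 and 150481522, the lowest library changed after the first of 3 inner stretches, while saline 2 was the highest in each. Among 4 raised sites of 81.6% to 90.7% lay 13 inner sites in 3 stretches. At the 4 sites of 150481310 to 150481342 the level was 41.7% and 37.2% with 5AZA, 48.1% and 54.1% with saline, and 47.8% and 18.65% in sham, so sham 2 was low. At the 3 sites of 150481403 to 150481413 it was 36.3% and 12.1% with 5AZA, 36.25% and 57.1% with saline, and 43.9% and 30.4% in sham. At the 6 sites of 150481475 to 150481515 it was 39.55% and 17.9% with 5AZA, 36.9% and 66.7% with saline, and 47.9% and 37.9% in sham. In the second and the third of these stretches 5AZA 2 was the lowest library and saline 2 the highest.

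At the widest of these gaps, the 95% Wilson intervals of single sites did not overlap between the libraries farthest apart. At 150481475 the first site of the last stretch had 8 methylated of 42 reads in 5AZA 2 (19%, 95% Wilson interval 9.98% to 33.3%), 35 of 52 in saline 2 (67.3%, 53.8% to 78.5%) and 8 of 22 in sham 2 (36.4%, 19.7% to 57.0%). At 150481310 sham 2 had 7 of 44 (15.9%, 7.93% to 29.4%) and sham 1 had 31 of 58 (53.4%, 40.8% to 65.7%). These totals were close to those of 150481280 and 150481332 together (23 and 22 reads in sham 2, 29 and 29 in sham 1). Whether the same fragments were counted more than once at 150481310 was not tested. At 150481332 sham 2 had 4 methylated of 22 reads and sham 1 had 14 of 29. The intervals take each read as a separate molecule and cover no other error. Reads without molecular identifiers need not be separate molecules, so the intervals may be too narrow even for counting error. Sham 2 and 5AZA 2 had the lowest summed coverage of the region (421 and 791 reads over its sites, against 852 to 1560 in the others), and the part of depth in the gaps was not tested.

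**Figure D4:**
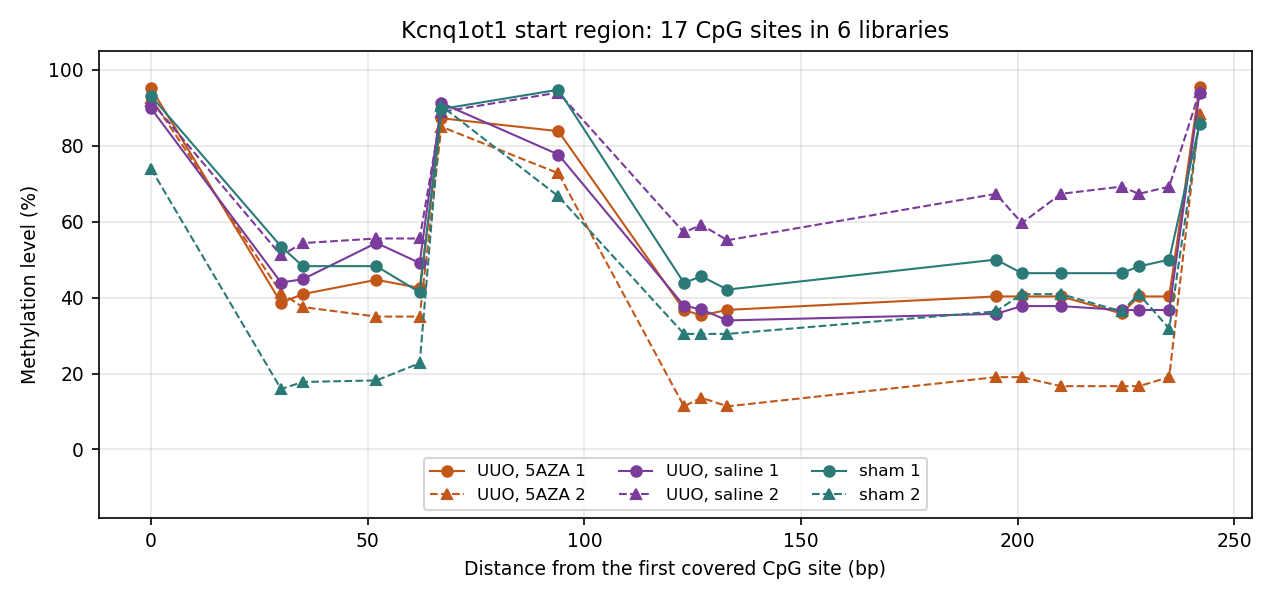
Methylation level (%) of the 17 Kcnq1ot1 sites in each library by distance from the first covered site (bp); colours are groups, solid lines with circles replicate 1 and dashed lines with triangles replicate 2. Sham 2 lies lowest at the first inner stretch, near 18.65%, and 5AZA 2 lies lowest and saline 2 highest at the later inner stretches, near 17.9% and 66.7% in the last.

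Cdkn1c was the region where obstruction and sham stood furthest apart in the test. Its 107 sites averaged 34.2% and 37.6% with 5AZA, 36.6% and 39.7% with saline, and 33.3% and 30.4% in sham. The saline and sham libraries did not overlap. Saline averaged 38.2% ± 2.23 against 31.9% ± 2.03 for sham (SD, n = 2 each). By sites this was a rise of 6.29 points, and by summed reads, which edgeR tested, of 10.4 points (edgeR adjusted p = 0.0426). The 10 sites of 80% or more took 13.2% and 9.97% of the Cdkn1c reads with saline and 8.07% and 10.1% in sham. With 5AZA they took 10.8% and 8.92%. The 90 sites that were not raised averaged 28.6% with 5AZA, 30.8% with saline and 24.0% in sham. The 17 raised sites averaged 74.5% with 5AZA, 77.2% with saline and 73.6% in sham. The 5AZA libraries overlapped with saline at 35.9% ± 2.35 (SD, n = 2), a difference of -2.27 points (edgeR adjusted p = 0.184). It was -0.608 points without 5AZA 1, -3.94 points without 5AZA 2, -3.85 points without saline 1 and -0.693 points without saline 2.

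The call on Cdkn1c rested on few libraries and settings. The edgeR adjusted p was 0.428 without saline 1 (7.87 points), 0.126 without saline 2 (4.71 points) and 0.22 without sham 2 (4.85 points), and 0.0229 without sham 1 (7.73 points). It was 0.581 without raised sites, 0.0681 when consecutive sites of equal coverage were counted once, 0.162 at a minimum of 20 reads per site and 0.399 by limma on log2 ratios. The sign of the difference was the same in each of these fits.

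Along the region, 1 window passed the test. The window at 150645001 to 150646000, with 58 sites and 1961 to 3905 summed reads per library, read 30.9% and 33.65% with 5AZA, 32.55% and 34.9% with saline, and 26.4% and 25.2% in sham. It rose by 7.94 points in saline over sham (edgeR adjusted p = 0.0426) and differed by -1.45 points between 5AZA and saline (edgeR adjusted p = 0.483). By summed reads these differences were 10.7 and -2.13 points. The call was lost without saline 1 (edgeR adjusted p = 0.404), saline 2 (edgeR adjusted p = 0.126) or sham 2 (edgeR adjusted p = 0.275). The neighbouring window at 150644001 to 150645000 had the largest differences of the region in both comparisons: 44.2% and 48.2% with 5AZA, 55.4% and 52.0% with saline, and 44.15% and 36.2% in sham, over 9 sites. Saline lay above sham by 13.6 points (edgeR adjusted p = 0.14), and 5AZA lay below saline with no overlap, a difference of -7.5 points (edgeR adjusted p = 0.178). By summed reads they were 25.8 and -13.2 points.

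The order of saline and sham differed among the windows farther along. At 150646001 to 150647000, 26 sites differed by 2.33 points between saline and sham, which overlapped. At 150647001 to 150648000, 6 sites read 22.9% and 25.6% with 5AZA, 26.0% and 28.7% with saline, and 30.6% and 35.0% in sham, so saline lay below sham there with no overlap (edgeR adjusted p = 0.778). At 150649001 to 150650000, 6 sites read 44.9% and 49.25% with 5AZA, 49.7% and 53.0% with saline, and 41.9% and 40.3% in sham, so saline lay above sham there by 10.2 points with no overlap (edgeR adjusted p = 0.396). By mean level, saline was higher than sham at 71 of the 87 sites of the first stretch, chr7:150644823-150646241. It was lower at 8 of the 12 sites of the next, chr7:150646871-150647092, and higher at 6 of the 6 sites of the last, chr7:150649844-150649952. The share of all sites with saline higher by mean level was not taken. Over all windows the median saline minus sham difference was 1.27 points. By single libraries, both with saline exceeded both of sham at 44 of the 107 Cdkn1c sites (41.1%), against 22.4% of all sites, and lay under both at 8 (7.48%), against 7.99% of all sites. With 5AZA, both libraries exceeded both with saline at 12 of the 107 (11.2%), against 8.71% of all sites, and lay under both at 32 (29.9%), against 26.0% of all sites. Neighbouring sites share reads, so these counts carry no test. The Cdkn1c sites were not matched to all sites for level: 63.6% of them were intermediate, against 19.2% of all sites.

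**Figure D5:**
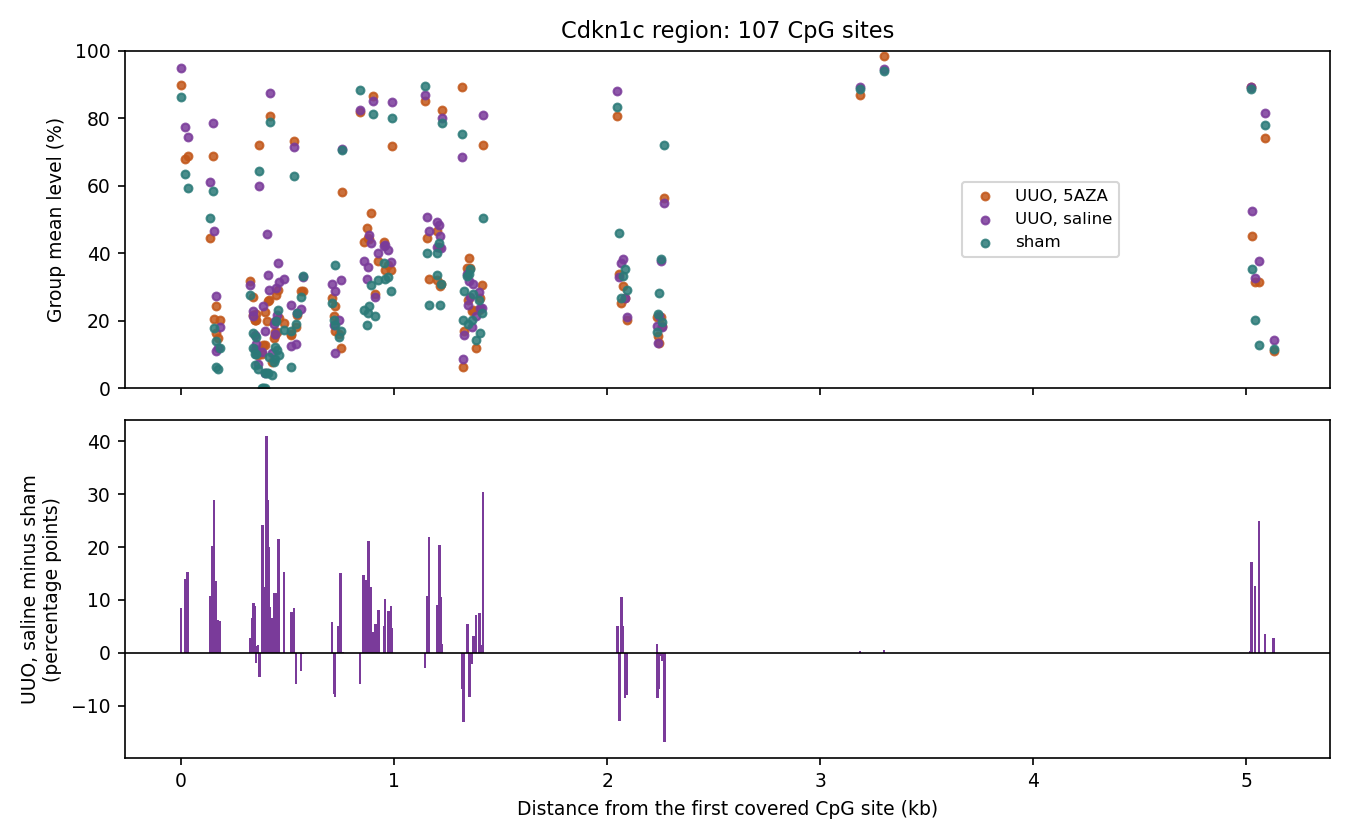
The 107 Cdkn1c sites by distance from the first covered site (kb): group mean levels (%) above, and saline minus sham (percentage points) below. Bars are positive at 71 of the 87 sites of the first stretch, negative at 8 of the 12 sites of the next, and positive at the 6 sites at the far end.

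Promoters of neighbouring genes read under 30% at each covered site outside CCGG. Of 26 gene names listed for this cluster and its flanks, 16 had a promoter sequence and 9 genes could be placed; the 10 placed promoters shared a single offset to their listed positions. Phlda2, an imprinted growth-restraining gene, averaged 8.19% and 10.3% with 5AZA, 11.9% and 8.96% with saline, and 10.2% and 9.76% in sham over 9 sites. Ascl2, a transcription factor gene of the trophoblast lineage and imprinted in mouse placenta, averaged 13.9% and 13.05% with 5AZA, 15.5% and 13.35% with saline, and 13.9% and 15.7% in sham over 21 sites. Cd81, which encodes a tetraspanin membrane protein, averaged 12.7% with 5AZA, 13.7% with saline and 12.5% in sham, and Tssc4 averaged 20.9% with 5AZA, 20.6% with saline and 19.9% in sham. The remaining placed promoters, of Ctsd, Mrpl23, Osbpl5 (at 2 places) and Nadsyn1, had group means between 10.2% and 28.2%. These levels include the CCGG sites and are raised by them. In Phlda2 the site in CCGG had a mean over the libraries of 74.4%, and the others 0.417% to 4.69%.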

How the data were processed

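Bisulfite libraries of MspI-cut kidney DNA were made with methylated dCTP in the end-repair mix and methylated adapters, and inserts of 40 to 120 bp and of 120 to 220 bp were kept, per the labels' protocols. The submitters' processing notes name Bowtie and mm9; no methylation caller is named in them. The authors deposited, for each CpG site, the count of covering reads, the count of methylated reads and their fraction, which equals methylated over covering reads in every row. The files have no header. Column meanings come from the values, and 0-based starts are printed 1-based.

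A level is the mean over sites of methylated over covering reads, with at least 10 reads in all 6 libraries (median coverage over all deposited rows, 21 to 48 reads per library). Counts summed per region and per window of 1000 bp with at least 3 sites went into edgeR's quasi-likelihood test (version 4.0.16 under R 4.3.3; glmQLFit, an intercept per library, a group effect on methylated counts), which was tested on simulated data. Named windows are those called, those with most sites and those with the largest differences in each region. The alternatives were coverage minimums of 5 and 20, other windows, limma 3.58.1, fewer libraries, a replicate block, summed reads, and leaving out sites. The members and lists were chosen with earlier results of these data known. Python 3.11.15, numpy 2.4.6, pandas 2.3.3 and scipy 1.17.1 were used for the rest.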

Additional observations from a re-analysis of the deposited data

How the results depend on the processing

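The 8 region differences kept their sign under each alternative that could be computed, except with summed reads in place of the mean over sites, where H19 (1.69 points) and Igf2 (-2.43 points) turned between saline and sham, and Igf2 (3.97 points) and its window at 149845001 (0.102 points) turned between 5AZA and saline. Read shares at high sites moved with this, and the cause was not tested. Without sham 2 the Igf2 window at 149845001 differed by -0.164 points between saline and sham (1.92 points without sham 1), and without saline 1 the Igf2 window at 149841001 by 1.61 points between 5AZA and saline (-17.7 points without saline 2). A pair of settings was chosen after the data were seen: leaving out raised sites, and counting runs of equal coverage once.

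The Cdkn1c difference between saline and sham no longer passed at a coverage minimum of 20 (9.76 points), without candidate fragment-end sites (6.14 points; sites whose coverage is within 5% of that of both neighbours together, or high sites in windows of low median), by limma (6.29 points), without raised sites (6.8 points) and with runs counted once (6.5 points); leaving out 1 library gave 4.71 to 7.87 points. Calls inside the regions were then 0, as in 500 bp windows, and 0 to 1 with 1 library left out. Over all windows the count of 46 was 0 without candidate fragment-end sites (8451 at an unadjusted edgeR p under 0.05), by limma (9756) and without raised sites (8300), 7 with runs counted once, 72 with only the 4 libraries compared, and 0 to 73 with 1 library left out. Between 5AZA and saline the count of 1394 was 0 in the same first 3 settings (17898, 18379 and 17141 unadjusted), 850 at a coverage minimum of 20, 173 with the 4 libraries, 412 in 500 bp windows, 451 with runs counted once, and 0 to 1180 with 1 library left out. A group left with 1 library takes its spread from the other groups.

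The deviations of 5AZA and saline libraries with the same sample number correlated at r = -0.01 over 89813 windows. With 1 difference between replicates per group, this cannot show whether the sample numbers mark pairs. With a replicate block in these 4 libraries the count was 6822 over all windows and 1 inside the regions, and edgeR passed Igf2 (-1.03 points by sites; adjusted p = 0.00353, on summed reads, which go the other way) and Cdkn1c (-2.27 points; adjusted p = 0.0236). The sham titles do not share such numbers, so no paired analysis of saline and sham was made. Few libraries and a median coverage of 21 to 48 reads over all deposited rows limit what could be detected.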

Other observations

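Further sites of the regions had reads but fewer than 10 in some library. At H19, 21 such sites held 64 methylated of 68 reads in 5AZA 1 and 200 of 217 in 5AZA 2, 38 of 38 in saline 1 and 95 of 102 in saline 2, and 118 of 144 in sham 1 and 54 of 63 in sham 2. The share of methylated reads ran from 81.9% (95% Wilson interval 74.9% to 87.4%) in sham 1 to 100% (90.8% to 100%) in saline 1. These reads fell on 3 and 14 of the 21 sites with 5AZA, 3 and 3 with saline, and 16 and 3 in sham. The level of the same sites in each library is thus not known. At Igf2, 102 such sites ran from 29.6% in 5AZA 2 (66 sites with reads) to 86.1% in saline 1 (22 sites with reads). At Kcnq1ot1, the 7 further sites had 6 reads in 5AZA 2, 1 in saline 2 and 0 in the other libraries, so the region is known from its 17 sites alone.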
